A study of Rattus norvegicus with 3 samples.

Results

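The genes described here make the enzymes and carriers that keep reactive oxygen species, glutathione and iron in check. They were chosen by symbol alone: superoxide dismutases, catalase, glutathione peroxidases (Gpx), peroxiredoxins (Prdx), names beginning with Txn (thioredoxins, their reductases, and proteins with a thioredoxin domain), glutaredoxins, sulfiredoxin, glutathione transferases, the enzymes that make and recycle glutathione, heme oxygenases, the quinone reductase Nqo1, the Nrf2 regulators, and ferritin and other iron genes. The choice matched 80 of the 17337 genes in the deposited table, 63 by a name pattern and 17 of 18 by an exact symbol; Nfe2l1 is not among the listed genes and is not analysed here. RNA was measured in 3 libraries of untreated wild-type Schwann cell precursors, the early glia of peripheral nerve, from dorsal root ganglia of embryonic rats. The cells were cultured in a modified Sato medium based on DMEM, whose supplements the labels do not list, and the labels give neither the embryonic age nor whether the libraries came from separate cultures. All 3 libraries form 1 group, so the data give levels within these cultures. Each p-value measures library-to-library spread alone, and that spread may be technical.

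As background, superoxide dismutases turn superoxide into hydrogen peroxide, which catalase, glutathione peroxidases and peroxiredoxins then reduce. Peroxiredoxins draw their electrons mostly from thioredoxin, and most glutathione peroxidases from glutathione, a tripeptide of glutamate, cysteine and glycine. Free ferrous iron turns peroxide into the far more damaging hydroxyl radical, so cells store iron inside ferritin shells, and the transcription factor Nrf2 (gene Nfe2l2) raises many of these genes when its inhibitor Keap1 is oxidised.

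Total counts were 15309526, 14139074 and 14162738 in replicates 1, 2 and 3. The counts of each pair of libraries differed by more than sampling noise (chi-square per degree of freedom of 1.67 to 2.36). Each library was counted as a replicate, although such a difference may be technical and does not show separate cultures. The 9 precursor markers, among them the transcription factor Sox10 at 612 ± 26.0 TPM (TPM, a length-corrected measure of transcript abundance that sums to 1000000 in each library; mean ± SD, n = 3), were all above 1 TPM and summed to 4057 to 4133 TPM. The 6 fibroblast markers summed to 8283 to 8483 TPM and 7 measured sensory neuron markers to 744 to 768. The 8 macrophage markers summed to 31.0 to 35.1 TPM, the 5 endothelial markers to 34.0 to 36.4, and the 6 measured erythroid markers to 1.11 to 1.68, with Hbb, Hba1 and Slc4a1 at no count. The 6 liver plasma protein markers summed to 0.675 to 2.18 TPM. The RNA is from whole cultures, so a larger share of 1 cell type and more RNA per cell cannot be told apart, and which cells carried the transcripts described below was not tested.

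Of the 80 genes, 68 were above 1 TPM, 3 were below, and 9 had no count in any library. The test was limma against 1 TPM over all 13345 genes with a count, with p-values adjusted by Benjamini-Hochberg and a threshold of 0.05. The largest adjusted p among the 68 was 1.93e-05. Over the whole table, 78.4% of the genes tested and 60.3% of the genes listed were above 1 TPM, 17.8% of those tested were below, and 23% of those listed had no count. At 100 TPM or more in every library were 26 of the 80 genes, against 11.7% of all listed genes. The median of the 80 mean levels was 45.7 TPM, against 8.38 over all listed genes and 21.7 over genes with a count. Together the 80 genes held 1.41%, 1.45% and 1.45% of all TPM in replicates 1, 2 and 3. Iron handling genes made up 31.7% of that sum and peroxide-removing enzymes 27.6%, while the 4 genes that make and recycle glutathione made up 1.30%. Of the mean 4542 TPM of the iron handling genes, the ferritin chains Fth1 and Ftl1 held 4374.

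**Figure D1:**
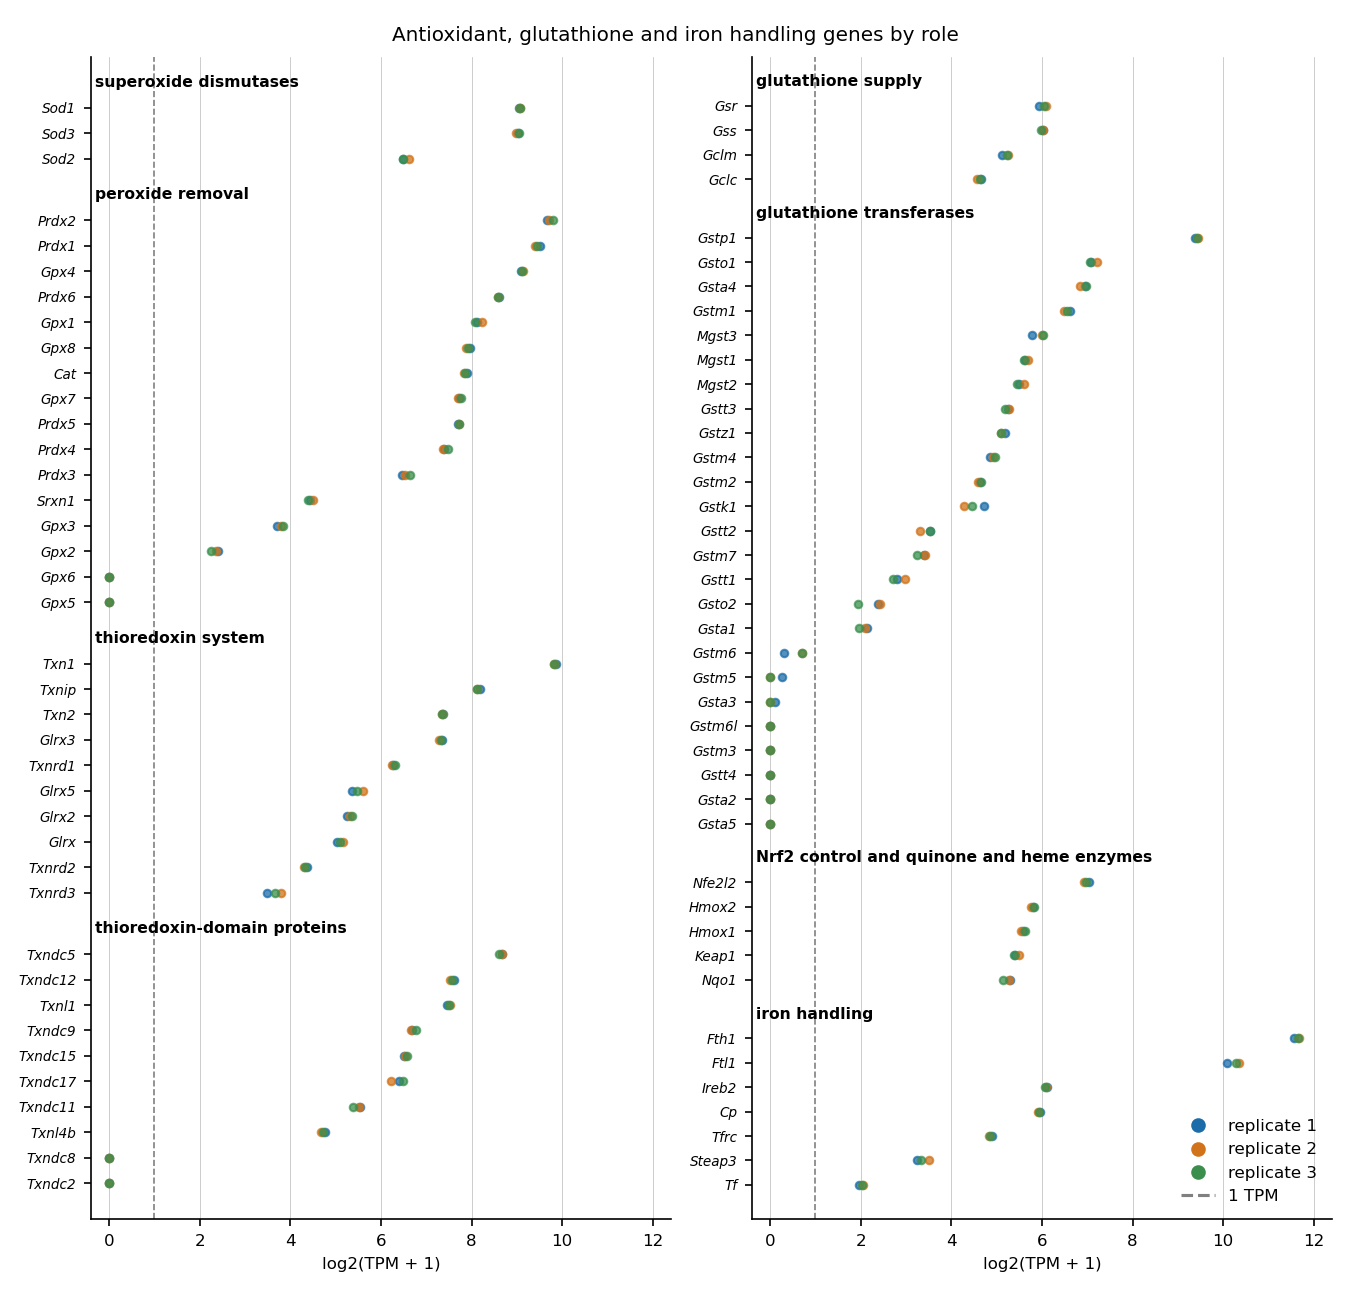
Level of each of the 80 genes, as log2(TPM + 1) on the horizontal axis, grouped by role, with 1 point per library and a dashed line at 1 TPM. The 3 points of most genes lie close together, Fth1 and Ftl1 are the highest, and the 12 genes left of the line are transferases, thioredoxin-domain genes and peroxidases.

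Among superoxide dismutases, the cytosolic enzyme Sod1 and the secreted, matrix-bound enzyme Sod3 were both high, and mitochondrial Sod2 was lower. Sod1 was at 525, 539 and 537 TPM in replicates 1, 2 and 3. Sod3 was at 520.2, 501 and 524 TPM, so that each library held about as much of the extracellular as of the cytosolic transcript. The log2 ratio of Sod1 to Sod3 was 0.05 ± 0.05 (SD, n = 3), which is about the size of its spread. Sod2 was at 88.5, 96.8 and 88.3 TPM, and Sod1 exceeded it by 2.55 ± 0.07 on the log2 scale in 3 of 3 libraries. The shares of the summed TPM of the 3 genes were 46.8% ± 0.548 for Sod1, 45.2% ± 0.961 for Sod3 and 8.0% ± 0.45 for Sod2. On raw counts, without length, the log2 ratio of Sod1 to Sod3 turned to -1.36 and the share of Sod1 was 24.3%, because the Sod3 model is listed with 1729 bases and that of Sod1 with 650.

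Such gene pairs were compared within libraries, as log2 ratios of TPM, after adding 0.1 TPM to both levels. Of 33 measured pairs, 24 had the first gene higher and 9 the second gene higher, each in 3 of 3 libraries. The exact sign-flip permutation test (two-sided) gave p = 0.25 for every pair, the smallest that 3 libraries allow, so no pair can pass 0.05 and ratios are set against their SD between libraries instead. For some pairs and shares this SD is smaller than counting error alone would give, and it then understates the uncertainty. An example is Txn1 to Txn2, with an SD of 0.01 although counting error was 2.25% and 2.81% of the 2 levels. Such ratios assume that the listed lengths are right and that reads of the genes compared were recovered equally well.

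Peroxiredoxins were the most abundant peroxide-removing family, at a summed 2399 ± 47.4 TPM, followed by glutathione peroxidases at 1303 ± 13.5 and catalase at 232 ± 3.68. Prdx2, a cytosolic peroxiredoxin also prominent in red blood cells, was at 808, 834 and 883 TPM. Prdx1, its close cytosolic relative, was at 731, 673 and 699 TPM. Prdx2 was therefore the higher in every library, by a log2 ratio of Prdx1 to Prdx2 of -0.26 ± 0.10. Prdx6, which also reduces phospholipid hydroperoxides, was at 391, 384 and 385 TPM.

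The organelle peroxiredoxins were lower. Prdx5, found in mitochondria, peroxisomes and the cytosol, was at 207, 209 and 209 TPM. Among those of the 80 genes at a mean of 10 TPM or more, it had the smallest relative spread (coefficient of variation, SD over mean, 0.48%). That value is below the 2.89% that counting error alone gives. Prdx4 of the endoplasmic reticulum was at 166, 165 and 176 TPM, and mitochondrial Prdx3 at 87.6, 91.2 and 98.3. Prdx1 exceeded Prdx4 by 2.05 ± 0.08 and Prdx5 exceeded Prdx3 by 1.18 ± 0.08 on the log2 scale. Prdx2 held 35.1% ± 1.16 and Prdx1 29.2% ± 1.16 of the family's TPM, and Prdx3 3.85% ± 0.176. Srxn1, the sulfiredoxin that repairs over-oxidised peroxiredoxins, was far below its substrates at 20.6, 21.6 and 19.99 TPM. The log2 ratio of Prdx1 to Srxn1 was 5.07 ± 0.10.

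Of the 8 glutathione peroxidases, 6 were above 1 TPM and Gpx5 and Gpx6 had no count. Gpx4, the selenoenzyme that reduces lipid hydroperoxides within membranes and thereby blocks ferroptosis (a death driven by iron and lipid peroxides), led at 543, 562 and 549 TPM. Gpx1, the general cytosolic selenoenzyme, was at 279, 298 and 269 TPM. Catalase, the peroxisomal heme enzyme, was at 236, 229 and 231 TPM, below Gpx1 in each library (log2 ratio of Gpx1 to catalase 0.28 ± 0.09). On raw counts that ratio turned, to -1.25.

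The 2 peroxidases of the endoplasmic reticulum, Gpx8 and Gpx7, stood close to Gpx1. Gpx8 was at 247, 234 and 241 TPM and Gpx7 at 211, 207 and 218, a log2 ratio of 0.18 ± 0.04. Unlike Gpx4 and Gpx1, these enzymes use cysteine in place of selenocysteine. Secreted Gpx3 was low at 12.045, 12.8 and 13.2 TPM, and Gpx2, known from gut epithelium, at 4.29, 4.18 and 3.74. Gpx4 exceeded Gpx3 by 5.43 ± 0.06 on the log2 scale. Gpx4 held 42.3% ± 0.376 of the family's TPM, Gpx1 21.6% ± 0.93, Gpx8 18.5% ± 0.663 and Gpx7 16.3% ± 0.58. Gpx4 was at least 2067-fold higher than Gpx5 and at least 1447-fold higher than Gpx6 in every library, with the gene without a count set at 3 counts per library. Such floors cover counting error only, since the reads carry no molecular identifiers.

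**Figure D2:**
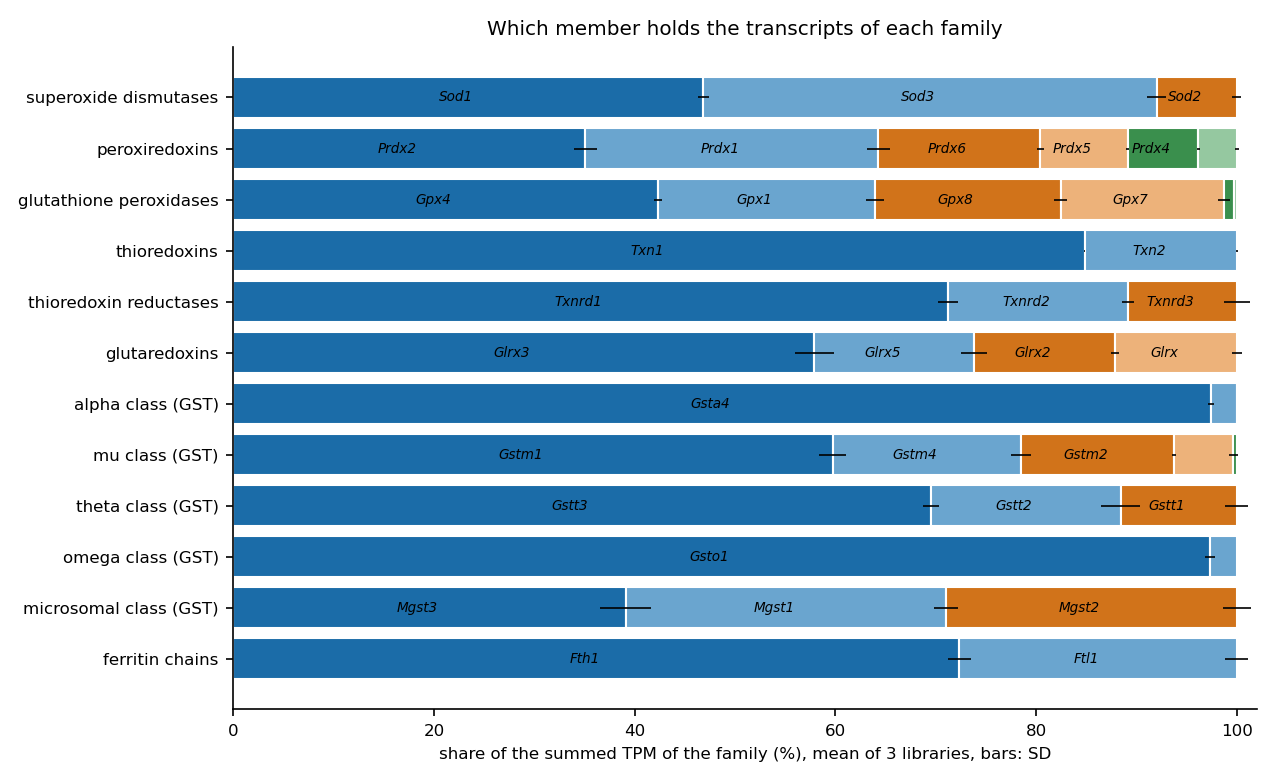
Share of the summed TPM of each of 12 families (horizontal axis, percent, mean of the 3 libraries) held by its members, stacked from the largest, with bars for the SD of each share above 3%. Gsta4, Gsto1 and Txn1 each hold over 80% of their family, whereas the superoxide dismutases are split between Sod1 and Sod3. The alpha class takes Gsta2 and Gsta5 as zeros, although their reads may not have been assigned.

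In the thioredoxin system, all 10 genes were above 1 TPM. Txn1, the cytosolic thioredoxin that hands electrons to peroxiredoxins, was at 930 TPM in replicate 1, 896 in replicate 2 and 905 in replicate 3. It is listed with 308 bases, the shortest of the 80 genes, so its level depends strongly on that length. On raw counts its share of both thioredoxins was 61.0% in place of 84.8% ± 0.083. Mitochondrial Txn2 was at 165, 161 and 163 TPM, and the log2 ratio of Txn1 to Txn2 was 2.48 ± 0.01.

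Thioredoxin is recharged by NADPH-dependent reductases, which are selenoenzymes. Cytosolic Txnrd1 was at 75.5, 74.2 and 78.2 TPM, mitochondrial Txnrd2 at 19.6, 18.8 and 19.0, and Txnrd3, best known from testis, at 10.2, 12.9 and 11.6. Txnrd1 exceeded Txnrd2 by 1.98 ± 0.05 and Txnrd3 by 2.71 ± 0.18 on the log2 scale. Txnrd1 and glutathione reductase Gsr, the equivalent enzyme of the glutathione arm, were close (log2 ratio 0.25 ± 0.09). Txnip, an arrestin-family protein that binds and inhibits thioredoxin and limits glucose uptake, was at 288, 277 and 277 TPM. Txn1 exceeded it by 1.70 ± 0.01 per length, but by raw counts the ratio turned, to -1.46.

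Glutaredoxins use glutathione to reduce disulfides or to carry iron-sulfur clusters. Glrx3, a cytosolic cluster carrier, led at 162, 155 and 160.5 TPM. Glrx5, its mitochondrial counterpart in cluster assembly, was at 39.9, 47.6 and 43.7 TPM, a log2 ratio of 1.86 ± 0.16. The dithiol enzymes were lower, with mitochondrial Glrx2 at 36.9, 39.0 and 40.0 and cytosolic Glrx at 31.7, 35.0 and 33.3 TPM. The log2 ratio of Glrx to Glrx2 was -0.21 ± 0.05.

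The name pattern also took in 10 proteins that carry a thioredoxin domain, of which 8 were above 1 TPM. Txndc5, a disulfide isomerase of the endoplasmic reticulum, was at 407, 404 and 388 TPM. Txndc12, another oxidoreductase of that compartment, was at 196, 184 and 190 TPM, and Txnl1, which associates with the proteasome, at 175, 184 and 179. The other 5 that passed lay between 25.4 and 104 TPM on average. Txndc2 and Txndc8, thioredoxins of sperm, had no count.

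Glutathione is made from glutamate, cysteine and glycine by the ligase of Gclc (catalytic) and Gclm (modifier) and then by the synthetase Gss. All 3 genes and Gsr were above 1 TPM, and none reached 100. Gclc was at 24.3, 22.8 and 23.7 TPM and Gclm at 33.8, 37.3 and 36.5. The modifier was thus the higher in each library, with a log2 ratio of Gclc to Gclm of -0.60 ± 0.12, although raw counts turn the sign to 0.43 because Gclc is listed with 3047 bases and Gclm with 1488. Gss was at 64.2, 63.9 and 62.0 TPM, above Gclc by 1.42 ± 0.05. Gsr was at 59.9, 66.8 and 65.3 TPM.

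Glutathione transferases, which attach glutathione to reactive compounds, were the most uneven group: 17 of 25 were above 1 TPM, 3 below, and 5 had no count. Gstp1 of the pi class was at 665, 699 and 682 TPM and held 56.2% ± 0.903 of the TPM of the 22 non-microsomal transferases. Gsto1 of the omega class, which has glutaredoxin-like activity, was at 135, 149 and 133 TPM. Gsta4 of the alpha class, known for its activity on the lipid peroxidation product 4-hydroxynonenal, was at 122.6, 114 and 125 TPM. Gstm1 of the mu class was at 97.5, 88.8 and 93.6 TPM. Gstp1 exceeded Gstm1 by 2.87 ± 0.10 on the log2 scale, whereas Gstm1 and Gsta4 differed by -0.37 ± 0.04, a sign that turns on raw counts (0.055).

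Lower members included Gstz1 of the zeta class, an enzyme of tyrosine breakdown, at 35.6, 33.2 and 33.3 TPM. Gstk1 of the kappa class, a mitochondrial and peroxisomal enzyme, was at 25.3, 18.5 and 20.9. Gstk1 was below Gstz1 by a log2 ratio of -0.67 ± 0.18. Exons of Gstz1 share 138 bases with Pomt2 on the opposite strand, at 31.0 TPM. Whether counting used strand is not stated in the sources used here, which leaves that stretch of the level uncertain. The membrane-bound microsomal enzymes were of similar level, with Mgst3 at 53.6, 62.9 and 64.5, Mgst1 at 48.6, 50.9 and 47.8, and Mgst2 at 44.0, 47.6 and 42.4 TPM. The log2 ratio of Mgst1 to Mgst3 was -0.29 ± 0.15, or 0.30 on raw counts.

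Many transferases and a few other genes lie side by side in the genome, and neighbours differed widely in level. In rn6 coordinates, 23 of the 80 genes fell into 7 groups whose members lie at most 150 kb apart. The mu class spans 154 kb of chromosome 2, from 210685338 to 210839242, and no other listed gene lies within it. From one end to the other its mean levels were 0.0667 TPM for Gstm5, none for Gstm6l, 9.22 for Gstm7, 0.505 for Gstm6, none for Gstm3, 23.8 for Gstm2, 93.3 for Gstm1 and 29.2 for Gstm4. The 3 highest genes were thus adjacent, at the end of higher coordinates. Gstm6, with 2, 5 and 5 counts, was below 1 TPM (log2(TPM + 1) difference -0.42 ± 0.10 SE, adjusted p = 0.00407 by limma). Gstm5 had 2 counts in replicate 1 and none elsewhere, and it is also listed on an unplaced scaffold. The ratio of Gstm1 to Gstm5 was 1339-fold with a 95% exact interval of 370.3 to 11066 for counting error. Mu class genes resemble each other and the treatment of multi-mapping reads is not stated, so how reads were split among them is uncertain.

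The theta class on chromosome 20 (13760810 to 13825475) showed the same kind of mixture. Gstt3 was at 37.0, 37.6 and 35.5 TPM, Gstt2 at 10.49, 8.95 and 10.52, and Gstt1 at 5.99, 6.90 and 5.51. Gstt4, which lies between Gstt2 and Gstt1, had no count, so that Gstt3 was at least 75.2-fold higher in every library. Gsto1 and Gsto2 are next to each other on chromosome 1, yet Gsto2 was at 4.21, 4.41 and 2.83 TPM, and Gsto1 exceeded it by 5.17 ± 0.29 on the log2 scale. Txn1 and Txndc8 lie within 66.7 kb on chromosome 5, and Txn1 was at least 885-fold higher in every library. In the alpha class, Gsta4 on chromosome 8 held 97.4% ± 0.294 of the class, and Gsta1 on chromosome 9 was at 3.39, 3.27 and 2.89 TPM. Gsta3, the neighbour of Gsta1, had a single count. Gsta2 and Gsta5 had no count, but their exons share 771 bases on the same strand, so reads from either may not have been assigned and these zeros carry little information. The share of Gsta4 takes both genes as zeros, so it may be too high.

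**Figure D3:**
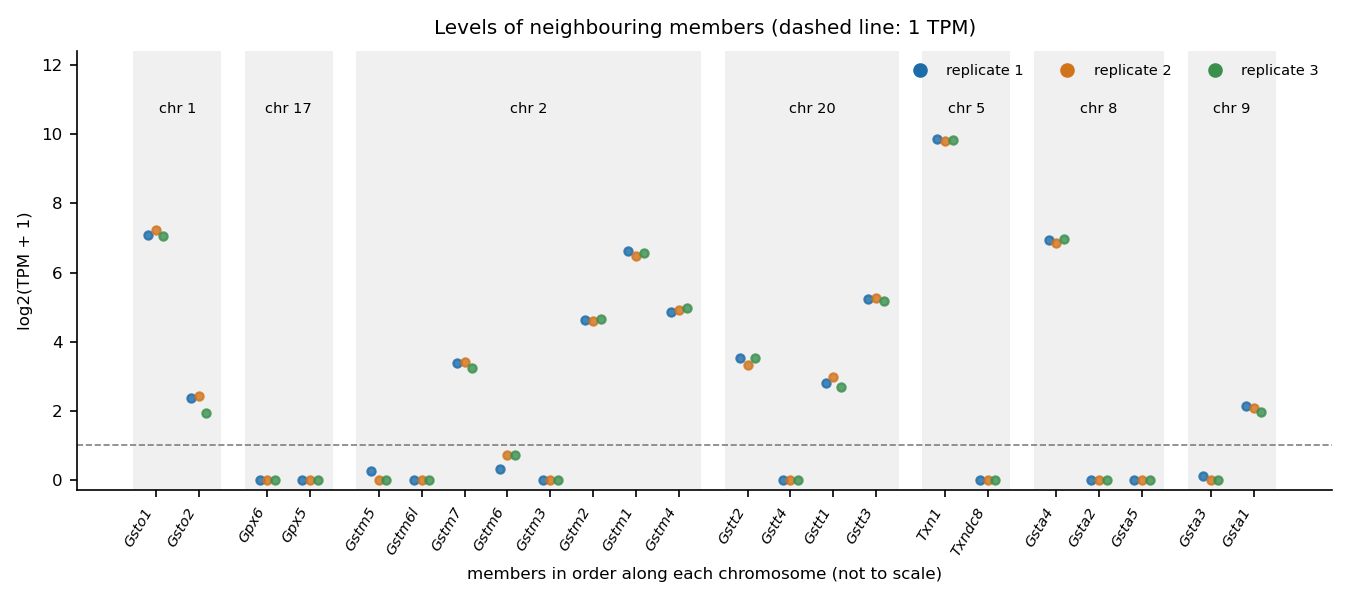
Level of the 23 genes with a neighbour among the 80, as log2(TPM + 1) on the vertical axis, in chromosomal order within 7 shaded groups, with 1 point per library and a dashed line at 1 TPM. Genes without a count, such as Gstm3, Gstt4 and Txndc8, lie next to genes far above the line, whereas Gpx5 and Gpx6 on chromosome 17 are both at no count.

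The Nrf2 regulators and the enzymes grouped with them were present at moderate levels. Nfe2l2, which encodes Nrf2, was at 130.1, 120.3 and 124 TPM. Keap1, which marks Nrf2 for degradation, was at 41.3, 43.8 and 41.0 TPM, a log2 ratio of Keap1 to Nfe2l2 of -1.57 ± 0.10. Nqo1, a classical Nrf2 target that reduces quinones, was at 38.3, 38.0 and 34.4 TPM. Inducible heme oxygenase Hmox1, which opens heme and frees its iron, was at 47.0, 45.4 and 48.1 TPM. Constitutive Hmox2 was at 54.5, 53.1 and 55.3 TPM, higher in 3 of 3 libraries by a small log2 ratio of 0.21 ± 0.01. Counting error alone was 3.66% of the level for Hmox2 and 4.42% for Hmox1, so this SD understates the uncertainty.

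Nrf2 binds antioxidant response elements, whose core is written TGACNNNGC. These letters were searched on both strands in the 250 bases before each listed start of a gene, in the RefSeq promoter table of the GRCr8 build, which holds 66 of the 80 genes; Fth1, Ftl1, Gpx8, Gsr, Gstm3, Gstm5, Gstm6l, Gstt1, Gstt2, Hmox1, Mgst2, Prdx6, Sod3 and Txnip were not matched. Of the 66, 12 had a match (18.2%), against 11.8% of the 13389 listed genes with a promoter there and 11.0% of all 27457 genes in the table. With only the first window of each gene, the shares were 16.7% of the 66 and 10.2% of all genes in the table. Whether these shares differ beyond sampling was not tested. The stretches below are shown because they cover both ends of the expression range, namely the 3 highest and the 3 lowest genes with a match, together with Txnrd1 and Gclm, 2 genes widely used as Nrf2 targets. Nqo1, Gclc and Srxn1, which are also used as Nrf2 targets, are among the 66 and had no match in this window. Capitals mark the match. Each stretch reads along the strand of its gene, so a match on the other strand appears as GCNNNGTCA.
Prdx1 (chr5:135383751-135383799, plus strand): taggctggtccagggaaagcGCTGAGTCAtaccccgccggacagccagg
Gstp1 (chr1:210769738-210769786, minus strand): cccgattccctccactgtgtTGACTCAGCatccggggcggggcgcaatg
Txndc5 (chr17:26495425-26495466, plus strand): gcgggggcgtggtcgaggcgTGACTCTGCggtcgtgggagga
Txnrd1 (chr7:22755954-22756002, minus strand): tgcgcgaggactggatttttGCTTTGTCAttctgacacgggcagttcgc
Gclm (chr2:213031943-213031991, plus strand): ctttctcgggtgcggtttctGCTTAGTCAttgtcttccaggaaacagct
Gstm7 (chr2:198260320-198260353, minus strand): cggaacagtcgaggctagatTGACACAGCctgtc
Gpx2 (chr6:101230034-101230066, minus strand): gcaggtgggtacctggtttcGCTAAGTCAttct
Gsta3 (chr9:31154952-31154988, plus strand): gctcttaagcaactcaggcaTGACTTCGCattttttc
The matches of Prdx1 and Gstp1 have the same 9 letters, TGACTCAGC, which also hold the AP-1 letters TGANTCA. On either strand, the AP-1 letters were found in 7.58% of the 66, 5.81% of the 13389 listed genes and 6.99% of all genes in the table. Prdx1 and Gstp1 were at 701 ± 28.7 and 682 ± 17.2 TPM, whereas Gpx2 and Gsta3 carry a match as well and were at 4.07 ± 0.289 TPM and at 1 count. The median level was 49.0 TPM for the 12 genes with a match and 42.9 for the 54 matched genes without one. Of the 12, 3 were at 100 TPM or more in every library, as were 20 of the 66. A match is a description of these letters and not of binding, and elements farther upstream lie outside this window.

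Ferritin transcripts were the most abundant among the 80 genes, and protein was not measured. Fth1, the heavy chain that oxidises iron for storage, was at 3029, 3262 and 3199 TPM and ranked 15th of all listed genes by mean level. Ftl1, the light chain that helps the mineral core form, was at 1085, 1306 and 1243 TPM and ranked 101st. The heavy chain held 72.4% ± 1.14 of the ferritin TPM, and the log2 ratio of Fth1 to Ftl1 was 1.39 ± 0.08. Both chains were lowest in replicate 1, as were 19 of the 60 genes with a mean of 10 TPM or more and 26.7% of all 8372 such genes in the table. For Ftl1 the coefficient of variation was 9.36%, against 1.13% from counting error alone. Ferritin genes have near-identical processed copies in rodent genomes, so reads may have been lost or shared. In rn6, Fth1 (NCBI gene 25319) has 4 exons on the plus strand of chromosome 1 between 226030940 and 226033228. Ftl1 (NCBI gene 29292) has 4 exons on the minus strand of the same chromosome, between 101448190 and 101450034.

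The genes of iron uptake were much lower than ferritin. Tfrc, the receptor that takes up iron-loaded transferrin, was at 29.0, 27.6 and 28.1 TPM. Steap3, the reductase that prepares this iron for export from the endosome, was at 8.49, 10.3 and 9.06 TPM. Tf, which encodes transferrin itself and is known from myelinating glia, was the lowest gene above 1 TPM, at 2.89, 3.17 and 3.11 TPM (log2(TPM + 1) difference 1.02 ± 0.07 SE, adjusted p = 4.84e-06 by limma). Tfrc exceeded Tf by 3.16 ± 0.10 on the log2 scale.

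Cp, the ferroxidase ceruloplasmin that helps iron leave cells, was at 61.0, 59.3 and 60.2 TPM. It exceeded Tf by 4.26 ± 0.09 on the log2 scale. By the limma test, none of the 6 liver plasma protein markers was above 1 TPM, 3 were below and 2, Fgb and Ahsg, had no count. The remaining marker, Ttr, was at 1.74, 0.415 and 1.45 TPM and was called in neither direction. Exons of Cp share 36 bases with Hps3 on the opposite strand. Ireb2, an iron-sensing protein that binds the mRNAs of ferritin and of the transferrin receptor when iron is scarce, was at 68.6, 66.7 and 65.6 TPM. It was above Tfrc in each library, with a log2 ratio of Tfrc to Ireb2 of -1.25 ± 0.03.

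**Figure D4:**
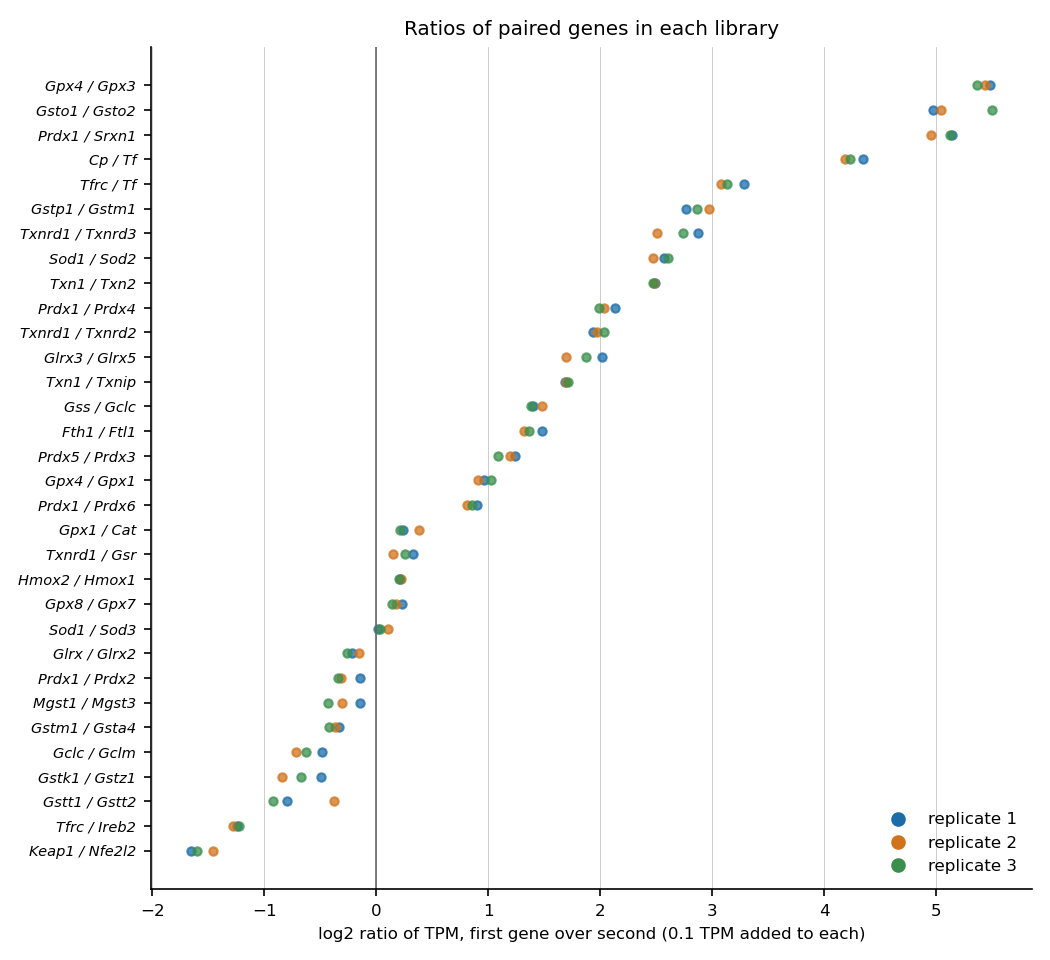
Log2 ratio of TPM of the first gene over the second (horizontal axis, 0.1 TPM added to each) for 32 gene pairs, with 1 point per library; the pair of Gstm1 and Gstm5 is left out because Gstm5 had 2 counts. No pair has points on both sides of 0, and Sod1 over Sod3 lies nearest to it at 0.05 ± 0.05.

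Other genes of these pathways were read from lists of textbook members, which were drawn up with earlier results of these data known. Of 28 measured genes of iron uptake, export and sensing, 21 were above 1 TPM, 3 below, 2 in neither direction and 2 had no count. The iron chaperone gene Pcbp2 was at 391 TPM on average, the endocytic receptor Lrp1 at 151 and the iron-sulfur scaffold Iscu at 131. Below 1 TPM in every library were Hfe, Tfr2 and Nfs1, and Hamp (the hormone hepcidin) and Ftmt (mitochondrial ferritin) had no count. Ncoa4, the receptor that delivers ferritin to lysosomes, was at 112, 109 and 112 TPM. Slc40a1, the only known iron exporter of mammalian cells, was at 2.55, 2.29 and 2.38 TPM. 

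Of 19 genes of cystine uptake and glutathione turnover, 16 were above 1 TPM, 2 below and 1 in neither direction. Slc3a2, the shared heavy chain of several amino acid transporters, led at 306 TPM, followed by the glyoxalase Glo1 at 238 and the glutathione-degrading enzyme Chac1 at 62.7. Slc7a11, the light chain that gives the cystine transporter its specificity, was at 8.23, 8.29 and 8.80 TPM. Ncoa4, Slc40a1 and Slc7a11 were picked out once their values were known. The dipeptidase gene Dpep1 was below 1 TPM in every library. Of 23 measured Nrf2 partners and targets, 22 were above 1 TPM, led by the autophagy receptor Sqstm1 at 590 TPM, the aldose reductase Akr1b1 at 506 and the transketolase Tkt at 476, and Aldh3a1 was below.

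Of 20 measured genes of selenoprotein synthesis and other selenoproteins, 17 were above 1 TPM, 1 below, 1 in neither direction and 1 had no count. The highest were Selenof at 548 TPM, Selenom at 298 and Selenos at 211, all of the endoplasmic reticulum, while the deiodinase Dio2 was below 1 TPM in every library and Dio1 had no count. Of 14 genes of lipid peroxidation and ferroptosis, 10 were above 1 TPM, led by Pebp1 at 626 TPM, the polyamine acetyltransferase Sat1 at 270.0 and the phospholipid acyltransferase Lpcat3 at 176. The lipoxygenases Alox5, Alox12 and Alox15 were below 1 TPM in every library, as was Vkorc1l1, which is listed at 2 places in the genome. Of 16 producers of reactive oxygen, 9 were above 1 TPM, 4 below, 1 in neither direction and 2 had no count. The oxidase subunit Cyba was at 79.2 TPM and the monoamine oxidase Maoa at 58.4. The NADPH oxidases Nox1 and Nox3 had no count, and Duox1, Duox2 and Xdh were among those below 1 TPM in every library. These shares are to be read beside the 60.3% of listed genes and 78.4% of tested genes above 1 TPM.

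Spread between libraries was assessed for the 60 genes at 10 TPM or more. Of these, 2 had a highest library more than 25% above the lowest, against 3.73% of the 8372 such genes in the table. They were Gstk1, with 168, 114 and 129 counts and a ratio of 1.37, and Txnrd3, with 210, 248 and 223 counts and a ratio of 1.27. Without replicate 1, and likewise without replicate 2, no gene passed that limit. The median coefficient of variation of the 60 was 3.48%, against 3.26% from counting error alone, and 3.84% against 3.56% over all 8372. By the ratio of the highest to the lowest library, Txndc17, a cytosolic thioredoxin-like protein at 83.6, 73.4 and 88.4 TPM, and Mgst3 followed, both at 1.205. Genes of lower level could vary more, such as Gsto2 with 43, 42 and 27 counts and a ratio of 1.56.

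**Figure D5:**
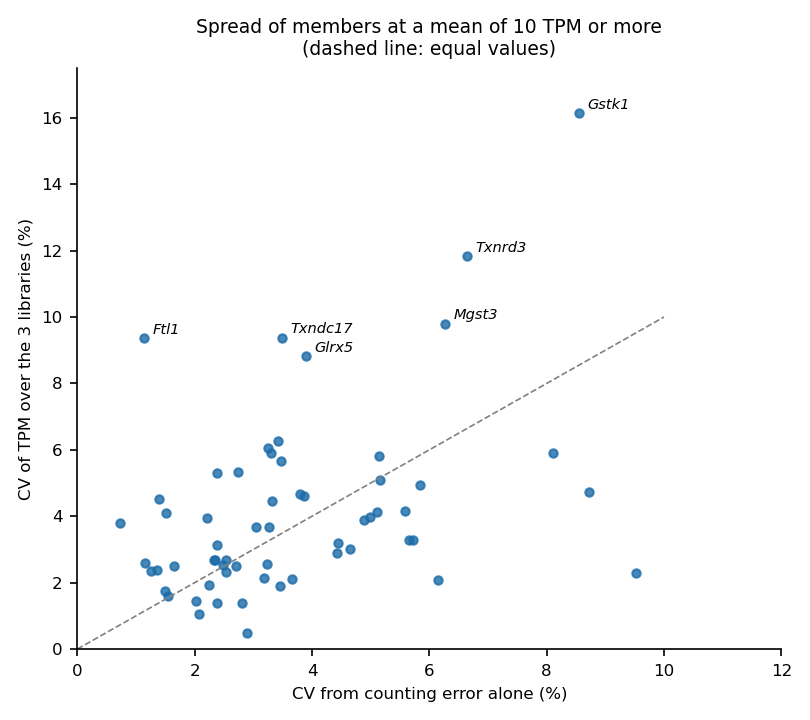
Coefficient of variation of TPM over the 3 libraries (vertical axis, percent) against the value that counting error alone gives (horizontal axis, percent), for the 60 genes with a mean of 10 TPM or more; the dashed line marks equal values. Most genes lie near the line, Gstk1 is the highest at 16.2%, and Ftl1 stands well above the line at 9.36% against 1.13%.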

How the data were processed

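Libraries from 3 RNA samples were made with the TruSeq Stranded mRNA kit, per the labels' protocols. STAR 2.5.2b, Subread and the rn6 build are named in the submitters' processing notes; of annotation, strand setting and multi-mapping the sources used here say nothing. The authors deposited raw counts per gene, gene lengths (another column, in bases) and TPM (counts per length scaled to 1000000). Recomputing TPM from these deposited columns gave values within 0.0005. Columns were matched to libraries by the number in their titles; 9 other columns and 2 rows without a gene name were not used.

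For every gene with a count, log2(TPM + 1) was compared with its value at 1 TPM in limma 3.58.1 under R 4.3.3, with a variance trend, two-sided, Benjamini-Hochberg adjusted over all 13345 genes, after tests on simulated data. Pairs, family shares and spread were computed per library. edgeR 4.0.16 and DESeq2 1.42.0 were used only for alternative scalings of the counts. Library values are given for the 3 highest genes of a role, small groups, pairs and the most variable genes; other genes by range, except Gpx2, Gstt3, Gsta1, Mgst2, Nqo1 and Steap3, chosen after their values were seen. Of pathway lists, the 3 highest genes and those under 1 TPM in every library are named, except a few genes not reported here. Symbols of pathway lists were matched by name, or by NCBI identifier for 10 selenoprotein genes (GRCr8 table, names only). Members, lists and pairs were chosen with earlier results of these data known. Alternatives covered pseudocounts, filters, variance trend, scaling, length and each library left out.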

Additional observations from a re-analysis of the deposited data

How the results depend on the processing

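The 68 genes above 1 TPM and the 26 at 100 TPM or more were the same numbers under every alternative run for them. The number below 1 TPM was 3, but 12 with no filter on low values, which adds the 9 genes without a count, and 1 when genes averaging under 0.1 TPM were dropped. With each library left out in turn it ranged from 1 to 3, being 1 without replicate 1, since Gstm5 and Gsta3 have counts in that library alone. The number of genes whose highest library lay more than 25% above the lowest was 2, or 4 with a mean of 1 TPM or more, and 0 to 2 with a library left out. Shares on raw counts, without length, were 48.4% for Gstp1 among 22 transferases, 96.2% for Gsta4, 57.4% for Gstm1, 77.0% for Gstt3, 95.9% for Gsto1 and 35.4% for Mgst3 in their classes. They were 70.4% for Fth1, 50.7% for Glrx3, 45.7% for Gpx4, 24.3% for Sod1, 78.9% for Txnrd1 and 61.0% for Txn1. Of the 33 pairs, 6 changed sign on raw counts: Gclc to Gclm (0.43), Sod1 to Sod3 (-1.36), Gpx1 to Cat (-1.25), Txn1 to Txnip (-1.46), Gstm1 to Gsta4 (0.055) and Mgst1 to Mgst3 (0.30). No pair changed sign under the other alternatives. TMM and DESeq2 scaling moved the median of all genes by at most 0.01 on the log2 scale. No paired analysis was possible because the labels give 1 group. A count of 3 per library, the floor chosen for the genes without a count, stood for 0.22 to 1.01 TPM in those genes. Levels under such a floor can still give a count, as Gsta3 did with 1 count. A zero in a library does not exclude them.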
